A study of Mus musculus with 6 samples.

Results

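Histone lysine methyltransferases place methyl groups on lysines of the histone tails, and histone lysine demethylases take them off. The set described here holds 48 of the 24421 genes in the count table. Members were the protein-coding mouse genes whose symbols belong to the families Kdm, Kmt, Setd (with Setdb), Ehmt, Suv39h, Nsd and Smyd, together with Dot1l and leaving out Kdm2b. By that rule 31 members are methyltransferases or other proteins with a SET or MYND domain, and 17 are demethylases. The rule uses names only and no measured value.

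RNA-seq was made from germinal vesicle (GV) oocytes, the fully grown oocytes of the ovary that are still arrested before the meiotic divisions, of 2 genotypes with 3 libraries each. DKO oocytes were Ring1 -/-; Rnf2 f/f; Zp3-cre, and SKO oocytes were Ring1 -/-; Rnf2 f/f without the transgene. Both genotypes therefore lack Ring1, and the comparison addresses the loss of Rnf2, the other catalytic E3 ligase of Polycomb repressive complex 1 (PRC1), while the oocyte grows. Each library pooled 15 oocytes of 1 female of about 3 months on a mixed FVB, 129/Sv and C57BL/6J background, after granulosa cells had been stripped off by pipetting. Zp3-cre is driven by the promoter of an egg coat gene that is active in growing oocytes, so Rnf2 is intact before growth starts. Only DKO carried the transgene, so what the transgene does and what the deletion does cannot be told apart.

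PRC1 places ubiquitin on histone H2A and compacts chromatin, and it works with Polycomb repressive complex 2, which methylates lysine 27 of histone H3 (H3K27). Methylation of H3K4 marks active promoters and enhancers, that of H3K36 and H3K79 marks transcribed gene bodies, and trimethylation of H3K9 and H4K20 marks heterochromatin. While the mouse oocyte grows it builds broad domains of H3K4 methylation and lays down DNA methylation over gene bodies marked by H3K36 methylation, so several of these enzymes have been studied in it by gene deletion.

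Total counts ranged from 15521975 to 26652745 per library. Levels are given as CPM, each count divided by the size of its library after the scaling described below. Rnf2 had 989, 654 and 589 counts in DKO oocytes, against 5041, 3901 and 4563 counts in SKO oocytes, and it was lower in DKO (log2 fold change -2.38, adjusted p = 0.000349, edgeR quasi-likelihood test). Log2 expression correlated at 0.942 to 0.962 between DKO libraries and at 0.973 to 0.977 between SKO libraries, so the DKO libraries differed more from each other. All 12 oocyte markers were detected, and 7 of them were lower in DKO, with a summed level of 12980 to 17794 CPM in DKO and 23008 to 24534 CPM in SKO. Of 10 tested granulosa markers, 5 were higher and 1 was lower, with sums of 216 to 247 CPM in DKO and 120 to 150 CPM in SKO, while Foxl2 and Amhr2 were below the expression filter. Of 6 tested markers of theca, stroma and endothelium, 3 were higher (Col1a1, Dcn and Pdgfra) and 1 was lower (Pecam1). The sums were 67.8 to 81.4 CPM in DKO and 94.1 to 127 CPM in SKO, and Pecam1 made up most of them. They thus mostly follow Pecam1 and not the 3 markers that were higher. Cdh5, on the same list, had 3 counts in DKO replicate 2 and 0 in every other library. Which cells the Pecam1 reads come from was not tested. Of 7 blood and immune markers, only Cd68 passed the filter and it was not called, the sums were 2.82 to 5.01 CPM in DKO and 1.15 to 3.46 CPM in SKO, and Hba-a1 and Hbb-bs had 0 counts. By their mean over all 6 libraries, the most abundant oocyte markers were Gdf9 (3994 CPM in DKO, 5654 CPM in SKO, not called), Bmp15 (2241 CPM in DKO, 3582 CPM in SKO) and Padi6 (1850 CPM in DKO, 2697 CPM in SKO, not called). Of the somatic markers, Nr5a2 (117 CPM in DKO, 79.1 CPM in SKO), Cyp11a1 (36.9 CPM in DKO, 14.6 CPM in SKO), Pdgfra (4.99 CPM in DKO, 0.765 CPM in SKO) and Dcn (3.43 CPM in DKO, 0.518 CPM in SKO) were higher, and Cyp19a1 (17 CPM in DKO, 30 CPM in SKO) and Pecam1 (60.9 CPM in DKO, 110 CPM in SKO) were lower. Fshr, singled out after its values were seen, had 30.7 CPM in DKO and 0.506 CPM in SKO, and Cd68 had 2.47 CPM in DKO and 2.02 CPM in SKO. The part of these shifts in the results on the enzymes was not tested, and in pooled oocytes fewer cells of a type and less RNA per cell cannot be told apart.

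Of the enzyme genes tested, 34 were not called and 13 changed. Setd7, close to silent in SKO oocytes, and Kmt2a, at a low level there, rose by far more than the others, and Kdm4c, Smyd2 and Kdm3a rose by 2.15-fold to 3.16-fold. Smyd5 fell 3.04-fold, and Kmt2e, Suv39h1, Nsd1, Kdm6b, Kdm5c, Kdm7a and Setdb1 fell by 1.43-fold to 1.86-fold. Every fold compares DKO with SKO, in CPM scaled by the trimmed mean of M values (TMM), and a gene was called when its adjusted p was under 0.05 over all genes tested. Of 47 members tested, 5 were called higher (10.6%) and 8 lower (17%), where among all 14845 genes tested 17.3% were higher and 7.41% were lower. Rises were thus less frequent among the members than among all genes and falls more frequent. That description has no test behind it and takes no account of the SKO level of the genes. The median log2 fold change was 0.03 over the tested members and 0.04 over all tested genes. Before adjustment, 20 members had a p under 0.05. Single libraries weighed on these counts. Members called lower numbered 5 with DKO replicate 1 left out (5.62% of all genes), 5 with SKO replicate 1 left out (3.35%), 2 with SKO replicate 2 left out (2.98%) and 3 with SKO replicate 3 left out (2.81%). Members called higher numbered 3 in the last of these (12.6% of all genes).

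**Figure D1:**
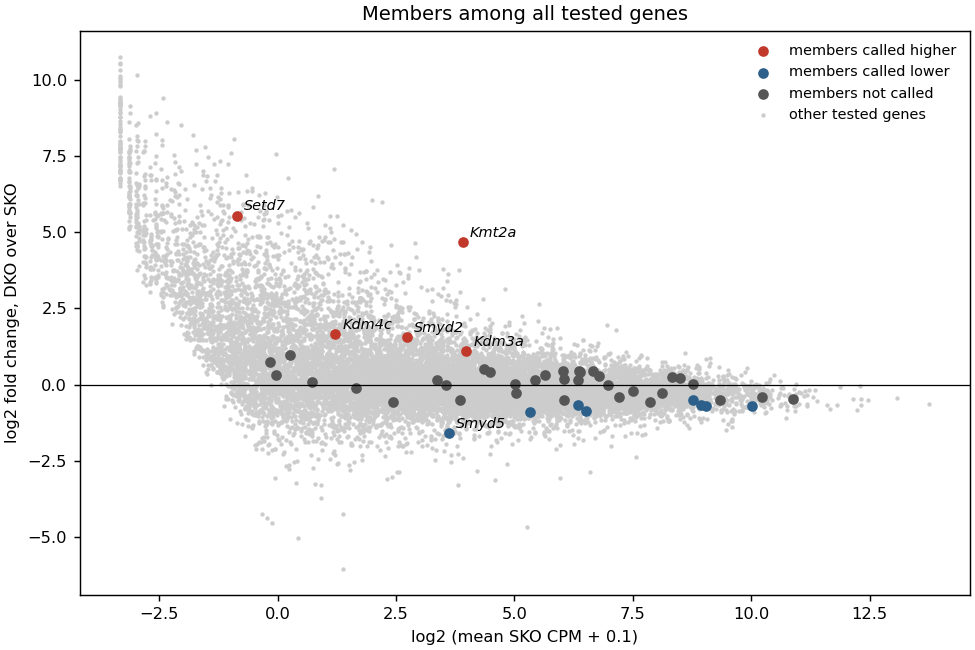
Log2 fold change of DKO over SKO (vertical axis) against the log2 of the mean SKO level in CPM plus 0.1 (horizontal axis), with all tested genes as small grey points and the 47 tested enzyme genes on top. Setd7 and Kmt2a stand far above 0 at 5.54 and 4.68, the other 3 genes called higher lie between 1.10 and 1.66, and the 8 called lower lie between -1.60 and -0.52.

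The level in SKO oocytes went with the direction of the calls, among the members as among all genes. Of 9 members under 10 CPM in SKO, 3 were higher and 0 were lower, where 29.0% and 1.68% of all genes of that level were. Of 21 members between 10 and 100 CPM, 2 were higher and 4 were lower (9.52% and 19.0%), beside 9.16% and 9.67% of all such genes. Of 17 members at 100 CPM or more, 0 were higher and 4 were lower (23.5%), beside 2.23% and 18.8% of all such genes. At like SKO levels the share of rises among the members was thus close to that among all genes. Each level class holds few members, so these shares are coarse. The expression filter itself favours genes that are high in 1 genotype: 43 members pass it on the SKO libraries alone, and Setd7, Ehmt2, Kdm4d and Smyd1 passed only with the help of the DKO libraries. Of those 43 members, 4 were higher (9.3%) and 8 lower (18.6%), beside 12% and 8.63% of the 12731 genes that pass in the same way. The CPM ranges of the genotypes did not overlap for 24 members, with DKO above SKO in 11 and below it in 13, where among all tested genes 44.3% did not overlap, with 24.7% above and 19.6% below. Of these 24 members, 11 were not called.

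**Figure D2:**
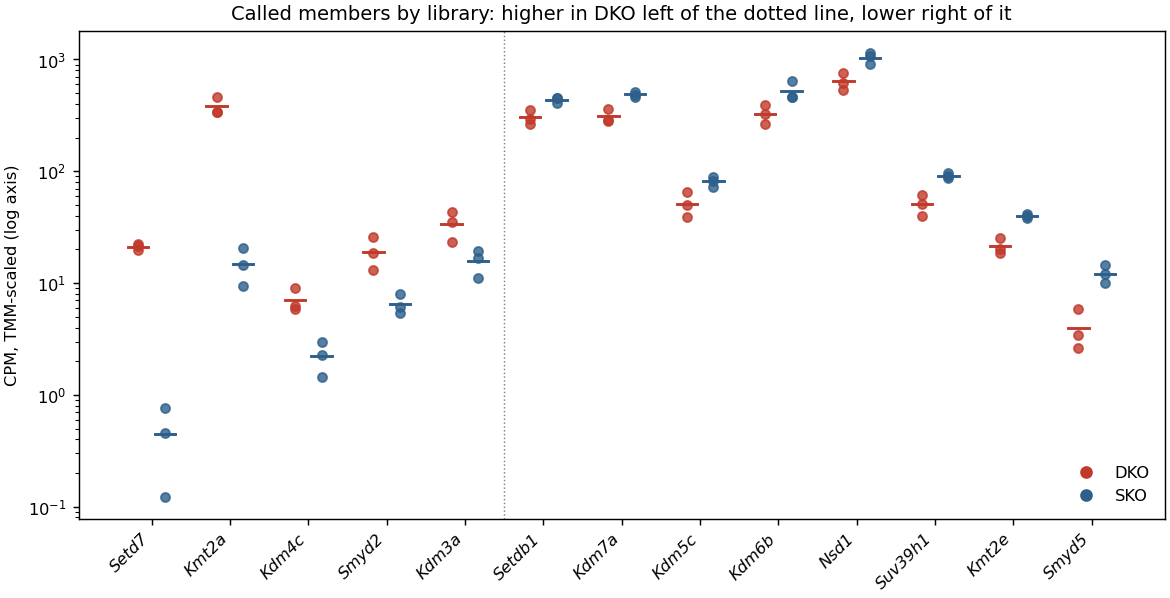
CPM of each library (log axis) for the 13 called enzyme genes, DKO left of SKO within each gene, with the 5 genes higher in DKO left of the dotted line and the 8 lower ones right of it. The points of the genotypes do not overlap for any of the 13 genes, and the gap is widest for Setd7 (19.7 to 22.4 CPM in DKO, 0.123 to 0.764 CPM in SKO) and Kmt2a (342 to 461 CPM in DKO, 9.34 to 20.8 CPM in SKO).

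The promoters of 4 called members are shown because they carry a sequence feature that most of the set shares, CpG dinucleotides. They were chosen after the values were seen. PRC1 of the variant type is known to reach DNA partly through Kdm2b, which binds unmethylated CpG. Each window runs from 250 bases before to 50 bases after the start site used in the RefSeq promoter table (GRCm38.p6). That site is the outer boundary of the gene for Setd7 and Kdm7a, and lies 63 bases inside it for Kmt2a and 204 bases inside it for Smyd2. All 4 lie on the minus strand and are written 5′ to 3′, and capitals mark CG. The windows are chr3:51560774-51561073 for Setd7, chr9:44881240-44881539 for Kmt2a, chr1:189922242-189922541 for Smyd2 and chr6:39206724-39207023 for Kdm7a. The first 3 belong to genes higher in DKO and that of Kdm7a to a gene lower in DKO.
Setd7: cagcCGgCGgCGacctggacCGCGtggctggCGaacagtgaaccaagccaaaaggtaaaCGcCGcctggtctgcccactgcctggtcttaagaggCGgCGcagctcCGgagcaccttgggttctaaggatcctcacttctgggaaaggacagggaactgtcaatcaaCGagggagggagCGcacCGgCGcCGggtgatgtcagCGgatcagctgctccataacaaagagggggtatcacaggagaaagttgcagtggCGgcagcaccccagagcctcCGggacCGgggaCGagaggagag
Kmt2a: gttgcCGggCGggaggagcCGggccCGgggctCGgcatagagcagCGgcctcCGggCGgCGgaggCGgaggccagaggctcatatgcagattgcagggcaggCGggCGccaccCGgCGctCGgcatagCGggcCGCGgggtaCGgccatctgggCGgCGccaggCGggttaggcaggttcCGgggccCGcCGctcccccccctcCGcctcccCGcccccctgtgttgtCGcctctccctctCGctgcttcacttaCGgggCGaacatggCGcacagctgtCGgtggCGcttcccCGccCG
Smyd2: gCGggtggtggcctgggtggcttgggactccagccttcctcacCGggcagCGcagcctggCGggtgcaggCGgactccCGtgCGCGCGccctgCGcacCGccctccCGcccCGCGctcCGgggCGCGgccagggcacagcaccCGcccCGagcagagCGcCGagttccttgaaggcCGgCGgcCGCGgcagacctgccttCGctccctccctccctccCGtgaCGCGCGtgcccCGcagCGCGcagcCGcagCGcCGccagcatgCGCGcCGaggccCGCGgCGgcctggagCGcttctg
Kdm7a: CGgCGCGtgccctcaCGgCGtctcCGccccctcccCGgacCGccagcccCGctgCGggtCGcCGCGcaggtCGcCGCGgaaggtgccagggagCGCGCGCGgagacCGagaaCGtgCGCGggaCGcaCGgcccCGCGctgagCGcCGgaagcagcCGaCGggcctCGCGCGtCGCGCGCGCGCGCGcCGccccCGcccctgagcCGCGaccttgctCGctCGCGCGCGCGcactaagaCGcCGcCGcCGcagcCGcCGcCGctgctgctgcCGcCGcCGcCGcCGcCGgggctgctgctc
Setd7 held 21 CG, Kmt2a 36, Smyd2 43 and Kdm7a 65 in its 300 bases. CG reads the same on both strands, 94.6% of the 32851 windows of the RefSeq table hold at least 1 CG, and 24.8% hold 21 or more. Of 36 members with a window, 30 (83.3%) had a CpG-rich one (over 50% G and C, and over 0.6 of the CG count that base composition predicts), beside 8300 of 16444 protein-coding genes of the table (50.5%). A gene with several windows counted if any of them was CpG-rich. That background also holds genes below the expression filter, whereas 47 of the 48 members passed it, so the sets are unlike. Of the called members with a window, 5 of 5 higher and 3 of 5 lower ones had a CpG-rich one. The 2 lower ones without were Smyd5, with 13 CG and an observed over expected ratio of 0.468, and Kdm5c, with 13 CG and 47% G and C. A CpG count describes the letters of these windows and says nothing of what binds there.

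Of the 6 genes grouped here as H3K4 methyltransferases, with Setd7 described apart, the one called was Kmt2a (Entrez 214162, GRCm38 chr9:44803355-44881352). It encodes MLL1, the catalytic subunit of a COMPASS-like complex with menin, known for keeping Hox genes active. It measured 342, 342 and 461 CPM in the DKO libraries, against 20.8, 9.34 and 14.6 CPM in the SKO libraries. The genotypes did not overlap, and the lowest DKO library lay far above the highest SKO library. The mean of Kmt2a was 382 ± 68.7 CPM in DKO oocytes and 14.9 ± 5.71 CPM in SKO oocytes (SD, n = 3 each), a log2 fold change of 4.68 (SE 0.31, adjusted p = 6.0e-06, edgeR). This 25.6-fold rise rested on 6016 to 11888 reads per DKO library and 203 to 516 reads per SKO library, and the log2 fold change stayed between 4.42 and 4.97 in all 14 alternative analyses. Kmt2a overlaps no other gene of the table.

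The other 5 H3K4 methyltransferase genes, all well expressed in both genotypes, were not called and each had a log2 fold change below 0. Kmt2b, whose deletion in mouse oocytes impairs their H3K4 methylation and fertility, measured 111, 190 and 175 CPM in DKO, against 201, 247 and 251 CPM in SKO. Its ranges did not overlap, yet its log2 fold change of -0.56 had an adjusted p of 0.0853. With the trend with GC content and length removed it was called lower (-0.73, adjusted p = 0.0078). Kmt2c and Kmt2d, which encode the writers of H3K4 monomethylation at enhancers, had -0.46 (95% interval -1.05 to 0.14) and -0.39 (-0.92 to 0.13). Kmt2c measured 922, 1115 and 2094 CPM in DKO, against 1779, 1913 and 1977 CPM in SKO, so DKO replicate 3 lay above every SKO library. Without DKO replicate 3, Kmt2c and Kmt2d were called lower (log2 fold changes -0.90 and -0.64, adjusted p = 0.00181 and 0.0468), and Kmt2d also with the GC and length trend removed (adjusted p = 0.0396). Setd1a and Setd1b, the catalytic subunits of the 2 complexes that hold Cxxc1, had -0.29 and -0.01, with intervals of -0.69 to 0.12 and -0.36 to 0.33.

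Per length, the make-up of this family shifted through Kmt2a. CPM per kilobase of gene length (RPKM) was summed over the 6 genes in each library. Kmt2a held 13.7%, 10.6% and 10.4% of the sum in the DKO libraries, against 0.568%, 0.227% and 0.350% in the SKO libraries. On the same scale Kmt2c held 32.6 ± 5.52% in DKO and 39.3 ± 0.928% in SKO (SD, n = 3 each). Kmt2d held 22.2 ± 2.62% in DKO and 25.1 ± 0.889% in SKO, and Kmt2b 9.26 ± 1.97% in DKO and 11.4 ± 0.563% in SKO. The shares of Setd1a (19.0 ± 1.74% in DKO, 19.4 ± 0.405% in SKO) and Setd1b (5.38 ± 1.86% in DKO, 4.35 ± 0.192% in SKO) differed by less than the spread in DKO. In DKO the Kmt2a share was thus about as large as that of Kmt2b, while in SKO it was under 1% of the family in every library. A share falls when another gene of the sum rises, so these are descriptions of make-up and carry no test.

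**Figure D3:**
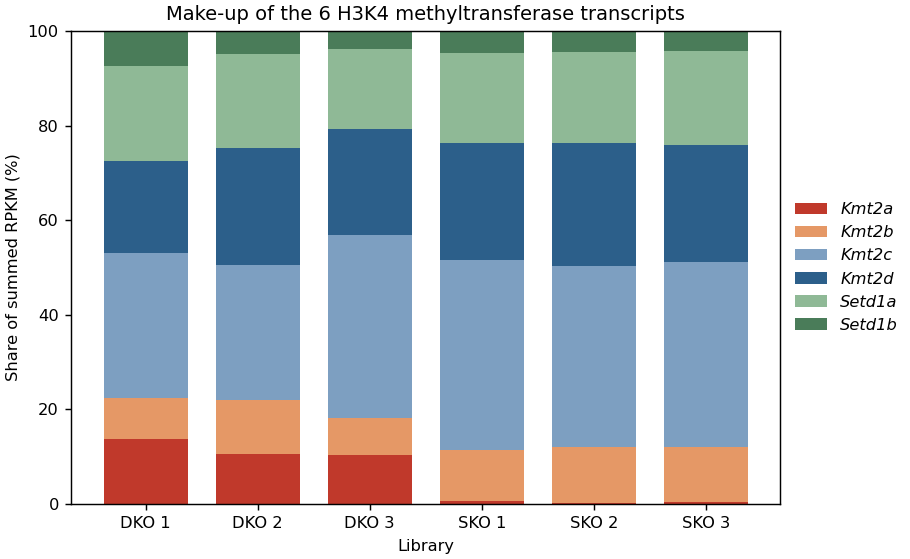
Share of each H3K4 methyltransferase gene in the summed RPKM of the 6 genes (vertical axis, percent), 1 bar per library with the 3 DKO libraries left of the 3 SKO libraries. Kmt2a, at the bottom of each bar, takes 10.4% to 13.7% in DKO and 0.227% to 0.568% in SKO, and Kmt2c is the largest share in every library.

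Setd7 (Entrez 73251; chr3:51515318-51560823) had the largest fold change of the set. It encodes a SET domain enzyme that adds a single methyl group to H3K4 in the test tube and to many proteins other than histones. Setd7 measured 21.6, 22.4 and 19.7 CPM in the DKO libraries, against 0.764, 0.460 and 0.123 CPM in the SKO libraries. All DKO libraries were high and close to each other, and the SKO libraries were close to 0, with 19, 10 and 3 reads. Setd7 passed the expression filter only with the help of the DKO libraries, where it is high. The mean was 21.2 ± 1.37 CPM in DKO oocytes and 0.449 ± 0.321 CPM in SKO oocytes (SD, n = 3 each), a 46.6-fold rise with a log2 fold change of 5.54 (SE 0.50, adjusted p = 4.3e-05, edgeR). Few SKO reads make the size of the fold uncertain: without SKO replicate 1 the log2 fold change was 6.17, and over all alternatives it lay between 5.08 and 6.17.

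The other SET and MYND domain genes moved in both directions. Smyd2 (chr1:189880492-189922495) encodes a methyltransferase of the tumour suppressor p53 and of other proteins. It measured 18.4, 25.9 and 13.1 CPM in DKO, against 7.92, 6.17 and 5.42 CPM in SKO, with no overlap. Smyd2 rose 2.94-fold (log2 fold change 1.56, SE 0.32, adjusted p = 0.00563, edgeR). Smyd5 (chr6:85431976-85446429), which encodes a relative of Smyd2, measured 2.62, 5.87 and 3.45 CPM in DKO, against 12, 9.99 and 14.4 CPM in SKO. It fell in all 3 DKO libraries below every SKO library (log2 fold change -1.60, SE 0.36, adjusted p = 0.00983). Kmt2e (chr5:23433036-23504235), whose product MLL5 carries a SET domain without known histone methyltransferase activity, measured 20.3, 18.7 and 25.4 CPM in DKO, against 41.7, 38.4 and 40.0 CPM in SKO. It fell 1.86-fold (log2 fold change -0.90, SE 0.21, adjusted p = 0.0105). Kmt2e overlaps Srpk2, which was not called and was 19.3 CPM higher in DKO. Setd7, Kmt2a, Smyd2, Smyd5 and Kmt2e were called in all 14 alternatives.

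The remaining 7 genes of this group were not called. Setd5 had 113 ± 3.94 CPM in DKO, against 84.0 ± 8.08 CPM in SKO, with no overlap between the libraries (log2 fold change 0.42, adjusted p = 0.0800). Smyd3 too had every DKO library above every SKO library (0.32), and Smyd4 every DKO library below (-0.52). Setd4, per length the most abundant of the group with 36.8 ± 7.48 RPKM in DKO and 33.1 ± 1.45 RPKM in SKO, had a log2 fold change of 0.15. Setd3, an actin histidine methyltransferase gene, had 0.03 and Setd6 had 0.42. Smyd1, a gene of heart and skeletal muscle, was barely detected, with 1.09 ± 1.0 CPM in DKO and 0.877 ± 0.581 CPM in SKO.

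Of the 6 H3K9 methyltransferase genes, Suv39h1 and Setdb1 fell. Suv39h1 (Entrez 20937; chrX:8061171-8074760) encodes the writer of H3K9 trimethylation at pericentric heterochromatin together with its paralog Suv39h2. It measured 40.0, 61.0 and 51.3 CPM in DKO, against 90.9, 97.3 and 86.7 CPM in SKO, and the libraries did not overlap. The log2 fold change was -0.85 (SE 0.19, adjusted p = 0.0101, edgeR), and the call was lost without SKO replicate 2 (adjusted p = 0.0508). Setdb1 (chr3:95323525-95357202), whose product trimethylates H3K9 over retroviral elements and is needed for oocyte meiosis in the mouse, measured 267, 351 and 295 CPM in DKO, against 408, 448 and 452 CPM in SKO. All DKO libraries lay below all SKO libraries. Its fall of 1.43-fold (log2 fold change -0.52, SE 0.16, adjusted p = 0.0406) is close to the threshold: without DKO replicate 1 and without SKO replicates 1, 2 and 3 in turn the adjusted p was 0.0768, 0.0883, 0.143 and 0.137, and with library totals as the only scaling it was 0.118. Setdb1 overlaps Cers2, which fell by 22.3 CPM where Setdb1 fell by 132 CPM.

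Suv39h2, the paralog of Suv39h1, was not called and had a log2 fold change above 0. It measured 383, 342 and 411 CPM in DKO, against 298, 320 and 345 CPM in SKO (log2 fold change 0.24, 95% interval -0.10 to 0.58, adjusted p = 0.288). The ratio of Suv39h1 to Suv39h2 in RPKM was 0.129, 0.220 and 0.154 in DKO oocytes, against 0.376, 0.375 and 0.310 in SKO oocytes, with no overlap. With 3 libraries against 3, the smallest 2-sided p of an exact permutation test is 0.1, so the ratio cannot pass 0.05 in such a test. Ehmt2, which encodes the H3K9 dimethyltransferase G9a, was at the low end in both genotypes, with 3.30, 1.64 and 1.63 CPM in DKO and 1.57, 1.38 and 0.370 CPM in SKO. The DKO libraries lay just above the SKO libraries, and the log2 fold change of 0.98 had an interval of -0.40 to 2.36. Ehmt1, whose product pairs with G9a, had 0.15, and Setdb2 had -0.27.

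Nsd1 (Entrez 18193; chr13:55209782-55318325) was the H3K36 methyltransferase gene that fell. It encodes a writer of H3K36 dimethylation. Nsd1 measured 539, 612 and 756 CPM in DKO, against 907, 1133 and 1069 CPM in SKO, without overlap, and its log2 fold change was -0.71 (SE 0.18, adjusted p = 0.0157, edgeR). The call was lost without SKO replicate 2 (adjusted p = 0.0807) and without SKO replicate 3 (0.0618). Setd2, which encodes the writer of H3K36 trimethylation that guides DNA methylation in mouse oocytes, measured 405, 360 and 548 CPM in DKO, against 425, 452 and 426 CPM in SKO. Its libraries overlapped, and the log2 fold change of 0.01 had a 95% interval of -0.39 to 0.41. Nsd2 and Nsd3, the relatives of Nsd1, had -0.21 and 0.20 and were not called.

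The writers of H3K79 and H4K20 methylation were not called either. Dot1l, the H3K79 methyltransferase gene, measured 66.1, 124 and 147 CPM in DKO, against 130, 167 and 148 CPM in SKO, with overlap (log2 fold change -0.40, interval -0.99 to 0.19). Kmt5a, which encodes the H4K20 monomethyltransferase, had every DKO library above every SKO library, at 131, 119 and 170 CPM in DKO against 95.9, 99.6 and 109 CPM in SKO. Its log2 fold change of 0.46 had an adjusted p of 0.0891. Kmt5b and Kmt5c, whose products add the further methyl groups on H4K20, had 0.00 and 0.09, with wide intervals of -0.80 to 0.79 and -1.0 to 1.18.

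**Figure D4:**
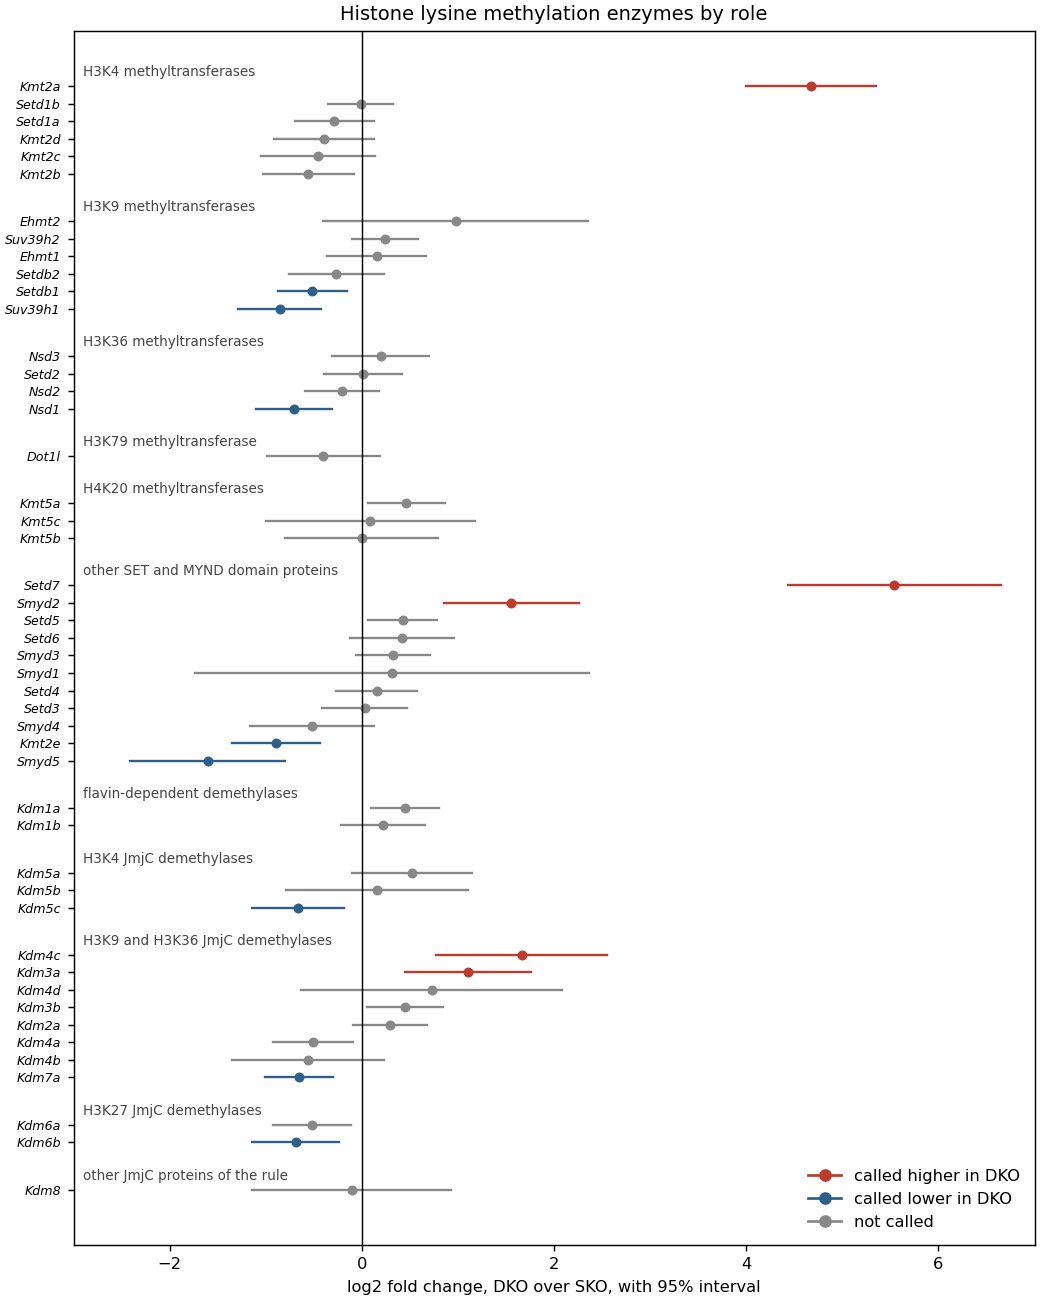
Log2 fold change of DKO over SKO (horizontal axis) with its 95% interval for the 47 tested enzyme genes, grouped by role down the page and coloured by call. Setd7 and Kmt2a lie at 5.54 and 4.68, while 32 of the 34 genes not called have a log2 fold change within 0.6 of 0.

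The flavin-dependent demethylases of H3K4 were not called. Kdm1b, which encodes LSD2, an enzyme that removes H3K4 methylation in growing mouse oocytes and is needed for maternal imprints, measured 499, 437 and 321 CPM in DKO, against 391, 384 and 302 CPM in SKO. The libraries overlapped, and the log2 fold change was 0.22 (interval -0.21 to 0.66). Kdm1a, which encodes LSD1, measured 90.1, 91.7 and 86.0 CPM in DKO, against 64.9, 61.2 and 69.7 CPM in SKO. Every DKO library was above every SKO library, with a log2 fold change of 0.45 and an adjusted p of 0.0643. Kdm1a was called higher with library totals (adjusted p = 0.0248), DESeq2 (0.0462) and the GC and length trend removed (0.0325). Per length Kdm1b stood above Kdm1a in both genotypes, at 81.5 ± 17.5 and 29.0 ± 0.968 RPKM in DKO and 69.8 ± 9.64 and 21.2 ± 1.39 RPKM in SKO.

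Of the JmjC demethylases of H3K4, Kdm5c fell and the others were not called. Kdm5c (Entrez 20591; chrX:152233198-152279102), a gene known for causing intellectual disability when mutated in humans, measured 49.7, 65.1 and 39.1 CPM in DKO, against 72.8, 89.6 and 81.6 CPM in SKO. The libraries did not overlap, but the fall was near the threshold (log2 fold change -0.67, SE 0.21, adjusted p = 0.0452, edgeR). The adjusted p was 0.0879 without DKO replicate 1, 0.0745 without DKO replicate 3, and 0.0775, 0.159 and 0.121 without SKO replicates 1, 2 and 3, and the call was also lost with library totals (0.156), with a stricter expression filter (0.0512) and with the trend with GC content and length removed (0.0598). The related Kdm5b, known in mice for trimming the broad H3K4 domains of the early embryo, measured 15, 14.7 and 4.5 CPM in DKO, against 11, 7.73 and 11.9 CPM in SKO, with DKO replicate 3 lowest (log2 fold change 0.16). Kdm5a had 29.3 ± 8.03 CPM in DKO and 20.4 ± 5.46 CPM in SKO (log2 fold change 0.52, interval -0.10 to 1.15). Kdm5d, a Y-linked gene, had 2 counts in DKO replicate 1 and 0 in the other 5 libraries, and it was the member below the filter.

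Kdm6a and Kdm6b, which encode demethylases of H3K27, were both lower in each DKO library than in every SKO library, and Kdm6b was called. These enzymes remove the mark of Polycomb repressive complex 2. Kdm6b (Entrez 216850; chr11:69398508-69420367) measured 262, 323 and 391 CPM in DKO, against 463, 465 and 648 CPM in SKO. Its log2 fold change was -0.69 (SE 0.20, adjusted p = 0.0323, edgeR). The call was lost when any library but DKO replicate 3 was left out, with adjusted p of 0.0818 and 0.0729 without DKO replicates 1 and 2, and 0.0529, 0.0571 and 0.148 without SKO replicates 1, 2 and 3. Kdm6a, the X-linked relative, measured 373, 420 and 571 CPM in DKO, against 613, 669 and 669 CPM in SKO. Its log2 fold change of -0.52 had an adjusted p of 0.0654, and it was called lower with DESeq2 (adjusted p = 0.0453), limma voom (0.0465), the GC and length trend removed (0.0298) and without DKO replicate 3 (-0.72, adjusted p = 0.00451). Of the 3 X-linked members, 2 (Kdm5c and Suv39h1) were called lower, where of 542 tested genes of the X chromosome 27.9% were called higher and 3.51% lower.

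The JmjC demethylases of H3K9 and H3K36 were split, with Kdm4c and Kdm3a higher and Kdm7a lower. Kdm4c (chr4:74242497-74405864), which encodes a demethylase of trimethylated H3K9 and H3K36, measured 9.11, 6.24 and 5.82 CPM in DKO, against 2.98, 2.26 and 1.44 CPM in SKO. It rose 3.16-fold (log2 fold change 1.66, SE 0.40, adjusted p = 0.0135, edgeR), with an adjusted p of 0.0540 without SKO replicate 3. Kdm3a (chr6:71588970-71632990), which encodes a demethylase of H3K9 mono- and dimethylation needed in the mouse testis, measured 43.1, 34.9 and 23.5 CPM in DKO, against 16.7, 19.4 and 11.1 CPM in SKO. The libraries of both genes did not overlap. Kdm3a rose 2.15-fold (log2 fold change 1.10, SE 0.29, adjusted p = 0.0211), and its call was lost without DKO replicate 1 (0.0676), DKO replicate 2 (0.0522), SKO replicate 1 (0.0590) and SKO replicate 3 (0.0867). Kdm7a (chr6:39136620-39206773), whose product acts on dimethylated H3K9 and H3K27, measured 282, 288 and 359 CPM in DKO, against 465, 515 and 484 CPM in SKO. It fell 1.58-fold (log2 fold change -0.66, SE 0.16, adjusted p = 0.0142), with adjusted p of 0.0736 and 0.0544 without SKO replicates 2 and 3. Kdm7a overlaps 4930599N23Rik, which fell by 28.7 CPM where Kdm7a fell by 178 CPM.

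The other 5 members of this group were not called. Kdm4a, which encodes a demethylase of trimethylated H3K9 that is needed maternally for mouse embryos, measured 49.8, 51.1 and 39.3 CPM in DKO, against 60.3, 73.8 and 65.0 CPM in SKO. Its libraries did not overlap, and the log2 fold change of -0.51 had an adjusted p of 0.0740 (0.0416 with DESeq2). Kdm4b had -0.56 at 3.63 ± 1.0 CPM in DKO and 5.35 ± 0.519 CPM in SKO, and Kdm4d had 0.73 at 1.33 ± 0.256 CPM in DKO and 0.801 ± 0.425 CPM in SKO. These low levels left intervals of -1.35 to 0.23 for Kdm4b and -0.63 to 2.09 for Kdm4d. Kdm3b, the relative of Kdm3a, had every DKO library above every SKO library (113 ± 12.3 CPM in DKO, 82.8 ± 12.4 CPM in SKO, log2 fold change 0.45, adjusted p = 0.0957). Kdm2a, an H3K36 demethylase gene, had 0.29, and Kdm8, a JmjC gene whose product also acts as a hydroxylase, had -0.11 at 2.81 ± 1.28 CPM in DKO and 3.04 ± 0.809 CPM in SKO. Whether the called genes changed more than their uncalled relatives was not tested.

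Ordered by level per length, both genotypes had Suv39h2, Kmt2c, Kdm6a and Setdb1 among their 5 most abundant enzyme genes, in a different order. In DKO oocytes the order began with Suv39h2 at 88.4 ± 8.17 RPKM, Kdm1b at 81.5 ± 17.5, Kmt2c at 68.9 ± 31.4, Kdm6a at 65.3 ± 14.9 and Setdb1 at 56.2 ± 7.95. In SKO oocytes it began with Kmt2c at 94.5 ± 5.05 RPKM, Kdm6a at 93.5 ± 4.66, Setdb1 at 80.5 ± 4.48, Suv39h2 at 74.9 ± 5.47 and Kdm6b at 72.0 ± 14.6. In DKO neighbours among these 5 genes differed by less than the larger SD of the pair, and in SKO the steps from Kdm6a to Setdb1 and from Setdb1 to Suv39h2 were larger than that. Kmt2a was in place 15 of 48 in DKO, at 23.1 ± 4.15 RPKM, and in place 41 in SKO, at 0.901 ± 0.345 RPKM. Setd7 was in place 34 in DKO, at 2.89 ± 0.187 RPKM, and in place 47 in SKO, at 0.0611 ± 0.0436 RPKM, so after its rise it still ranked among the lower genes of the set. Summed over the 48 members, the level was 6777, 7586 and 9638 CPM in DKO and 8859, 9788 and 9779 CPM in SKO, with overlap.

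**Figure D5:**
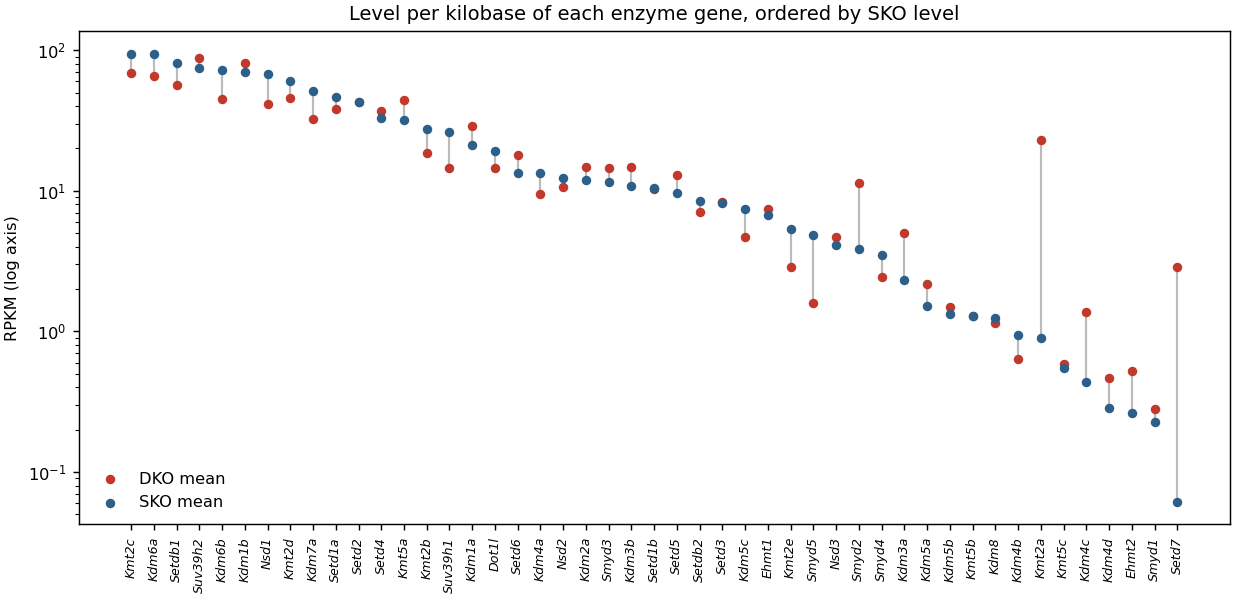
Mean RPKM of each genotype (log axis) for the enzyme genes, ordered by their mean in SKO. Leaving out Kdm5d, which had no SKO read, the order spans from Kmt2c at 94.5 RPKM to Setd7 at 0.0611 RPKM in SKO, and Kmt2a and Setd7 are where the DKO points stand far above the SKO points.

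The enzymes work in complexes, and the genes of their partners changed in single members. Of 60 partner genes on 5 lists, all tested, 6 were higher and 5 lower, beside 17.3% and 7.41% of all tested genes, and their median log2 fold change was -0.06. Lower partner genes numbered 2, 3 and 8 with DKO replicates 1, 2 and 3 left out (5.62%, 8.66% and 9.83% of all genes). They numbered 1 with any SKO replicate left out (2.81% to 3.35% of all genes). Of 14 subunits of the H3K4 methyltransferase complexes, 0 were higher and 1, Ash2l, was lower. Ash2l, a core subunit shared by all these complexes, measured 26.1, 29.9 and 19.9 CPM in DKO, against 41.2, 40.4 and 44.2 CPM in SKO (log2 fold change -0.73, adjusted p = 0.0311, edgeR). Its call was lost without SKO replicates 1, 2 and 3 in turn (adjusted p of 0.0839, 0.0856 and 0.107) and with library totals (0.117).

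On the list of LSD1 and LSD2 complex members, 4 of 15 genes were higher and 2 lower. Of all tested genes, 17.3% were higher and 7.41% lower. The lists were chosen with earlier results of these data known, and they were not tested against each other or against all genes. The transcription factor genes Gfi1, Gfi1b and Insm1, whose products share a SNAG motif that docks onto LSD1, were all higher. Gfi1 had 53, 75 and 52 counts in DKO, against 1, 0 and 0 counts in SKO, a ratio of 198 with a 95% counting interval of 35.0 to 7845 (adjusted p = 0.000311, edgeR), and the only SKO read was in replicate 1. Gfi1b measured 3.53, 4.41 and 7.26 CPM in DKO, against 0.965, 0.322 and 1.15 CPM in SKO (log2 fold change 2.63, adjusted p = 0.00650, edgeR). Insm1 measured 83.7, 38.2 and 46.6 CPM in DKO, against 21.1, 23.8 and 14.0 CPM in SKO (log2 fold change 1.52, adjusted p = 0.00678). None of these 3 genes had overlapping ranges, but Gfi1 and Gfi1b passed the expression filter only with the help of the DKO libraries, where they are high. Phf21a, which encodes the BHC80 subunit that reads unmethylated H3K4, rose too, with 50.5, 63.6 and 81.8 CPM in DKO, against 24.2, 27.2 and 25.3 CPM in SKO (log2 fold change 1.35, adjusted p = 0.00154). Gse1 fell, with 195 ± 76.3 CPM in DKO and 353 ± 34.3 CPM in SKO (log2 fold change -0.86, adjusted p = 0.0384), and it overlaps Gins2, which was not called. Glyr1, the gene of a cofactor of LSD2, fell as well, with 91.3 ± 16.9 CPM in DKO and 134 ± 9.85 CPM in SKO (-0.56, adjusted p = 0.0473). Their calls were lost without DKO replicate 1 (adjusted p of 0.0509 for Gse1 and 0.0892 for Glyr1) and without SKO replicate 1 (0.0640 and 0.142), SKO replicate 2 (0.0945 and 0.0946) and SKO replicate 3 (0.113 and 0.148). Gse1 also lost it without DKO replicate 2 (0.0883), and Glyr1 without DKO replicate 3 (0.0608), with library totals (0.139) and with the stricter filter (0.0541).

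On the list of the DOT1L complex and the super elongation complex, 1 of 11 genes was higher and 2 were lower. The shares over all tested genes were 17.3% higher and 7.41% lower. Mllt10, which encodes the cofactor AF10 of DOT1L, measured 310, 402 and 571 CPM in DKO, against 756, 825 and 798 CPM in SKO (log2 fold change -0.89, adjusted p = 0.0131, edgeR). It was called in all 14 alternatives, and it overlaps Dnajc1, which fell by 127 CPM where Mllt10 fell by 366 CPM. Mllt6, the gene of the related AF17, had 12.9, 9.39 and 11.7 CPM in DKO, against 5.59, 3.27 and 4.56 CPM in SKO (log2 fold change 1.34, adjusted p = 0.0128, and 0.0650 without SKO replicate 2). The elongation factor gene Ell had 108 ± 34.1 CPM in DKO and 178 ± 13.5 CPM in SKO (log2 fold change -0.72, adjusted p = 0.0486), with an adjusted p between 0.0503 and 0.146 without DKO replicates 1 and 2 and each SKO replicate, of 0.0747 with library totals and of 0.0529 with the stricter filter. Of 13 readers and partners of H3K9 methylation, 1 was higher, Atf7ip2, with 18.6 ± 1.59 CPM in DKO and 10.7 ± 1.28 CPM in SKO (log2 fold change 0.79, adjusted p = 0.0354). Its call held without DKO replicate 3 and was lost without each other library, with adjusted p between 0.0550 and 0.150, and with no filter (0.0612). Of 7 readers and cofactors of H3K36 methylation, 0 were called.

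Among 18 lysine methyltransferase and demethylase genes that the naming rule leaves out, 15 were tested, 2 were higher and 1 was lower. The shares over all tested genes were 17.3% higher and 7.41% lower. Jmjd1c, a JmjC gene related to Kdm3a, measured 158, 131 and 178 CPM in DKO, against 98.1, 91.1 and 69.9 CPM in SKO (log2 fold change 0.85, adjusted p = 0.00963, edgeR, and 0.0599 without SKO replicate 3). Phf2, a relative of Kdm7a, had 65.2, 70.6 and 97.6 CPM in DKO, against 41.3, 48.8 and 47.2 CPM in SKO (0.77, adjusted p = 0.0200, and 0.104, 0.0669 and 0.0734 without SKO replicates 1, 2 and 3). Ezh1, a catalytic subunit of Polycomb repressive complex 2, had 62.0, 88.4 and 90.2 CPM in DKO, against 121, 124 and 122 CPM in SKO (-0.61, adjusted p = 0.0362). The call of Ezh1 was lost without SKO replicates 1, 2 and 3 (0.0992, 0.112 and 0.105) and with library totals (0.0773). Kdm2b, the CpG-binding subunit of a variant PRC1, was not called, with 200, 319 and 301 CPM in DKO and 233, 256 and 258 CPM in SKO.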

How the data were processed

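RNA of pooled GV oocytes was amplified before library construction (per the labels' protocols). A read is thus not 1 molecule, and counting intervals cover counting error only. The authors deposited raw read counts per Entrez gene with gene lengths and without normalization. Per the submitters' processing notes, STAR 2.5.0a was used and the genome builds were GRCm38 and mm10. The counting program, its annotation and its use of strand were not given in the sources used here, so reads of overlapping genes cannot be told apart. Each sample is 1 mouse.

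Of 24421 identifiers, 24387 matched RefSeq, which gave symbols and coordinates, and unmatched ones held at most 0.087% of a library. The members and lists were chosen with earlier results of these data known. Members of all kinds were read from 1 fit over the whole table in R 4.3.3 with edgeR 4.0.16: filterByExpr (minimum count 10, minimum total 15), TMM scaling, 2-sided quasi-likelihood test, Benjamini-Hochberg adjustment over 14845 genes. Standard errors come from the F statistic. CPM and RPKM use TMM-scaled library sizes, with the deposited lengths for RPKM. The code was tested on simulated data. Alternatives were RLE scaling, library totals, no filter, at least 1 CPM in 3 libraries, DESeq2 1.42.0, limma 3.58.1 (voom), a replicate block, removal of the GC and length trend, and leaving out each library.

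Text names every member. Those given with levels were the called members, the 5 largest changes not called, the most abundant of a role, and enzymes studied in oocytes. From partner lists and the list outside the rule, called genes are named, and of the marker lists the 3 most abundant tested genes.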

Additional observations from a re-analysis of the deposited data

How the results depend on the processing

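Of the 13 called enzyme genes, Kmt2a, Setd7, Smyd2, Smyd5 and Kmt2e kept their calls in all 14 alternatives, and no called gene reversed. Scaling by library totals moved the median log2 fold change of all genes from 0.04 to 0.20 and the share of higher among called genes from 70.0% to 82.9%. With it 9 members (19.5% of all genes) were higher (adding Kdm1a, Kdm3b, Kmt5a and Setd5) and 6 (4.01%) lower (without Kdm5c and Setdb1), and partner genes called lower numbered 2. They numbered 3 with the stricter filter (7.52% of all genes) and 10 with the GC and length trend removed (9.99%). Leaving out 1 library at a time gave 3 to 5 members higher (12.6% to 17.7% of all genes). It gave 2 to 10 members lower (the 10 without DKO replicate 3) and 1 to 8 partner genes lower. Of all genes, 2.81% to 9.83% were then lower. Of the values of single genes under the 8 alternatives that keep all libraries, 522 stayed on their side of the threshold, 16 lost a call, 15 gained one and 15 changed sign. Whether replicate numbers pair the samples is not known. Deviations of same-numbered libraries correlated weakly, at 0.139, 0.0773 and 0.0479, and those of the other DKO and SKO pairs at -0.084 to 0.00678. Every library thus correlated best with its own number. A replicate block gave 5 members (17.9% of all genes) higher and 10 (9.19%) lower, adding Kmt2b (adjusted p = 0.0306) and Kdm6a (0.0388), and among partner genes Glyr1 lost its call (0.0501). Genes near 0 changed sign, and the cause was not tested: Setd2 (RLE -0.0013, no filter -0.028, DESeq2 -0.0013, voom -0.0088, block -0.013, GC and length -0.12), Kmt5b (totals 0.19, stricter filter 0.023), Setd1b (0.15 and 0.010), Kdm8 (totals 0.024), Setd3 (no filter -0.015, GC and length -0.043), Kdm5b (voom -0.079) and Smyd1 (voom -0.14). Over left-out libraries Ehmt1 ranged from -0.13 to 0.33, Kdm5b from -0.092 to 0.53, Kdm8 from -0.51 to 0.17, Kmt5b from -0.37 to 0.31, Kmt5c from -0.15 to 0.30, Setd1b from -0.079 to 0.043, Setd2 from -0.19 to 0.13, Setd3 from -0.071 to 0.10, Smyd1 from -0.62 to 0.85 and Cd68 from -0.50 to 0.71. A floor of 3 counts corresponds to 0.116 to 0.171 CPM.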

Other observations

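Of 6 ratios of related enzymes in RPKM, that of Kmt2a to Kmt2c, like that of Suv39h1 to Suv39h2, did not overlap between the genotypes, at 0.448, 0.371 and 0.266 in DKO, against 0.0141, 0.0059 and 0.00893 in SKO. The other 4 overlapped. Kdm1a over Kdm1b was 0.302, 0.351 and 0.447 in DKO, against 0.278, 0.266 and 0.386 in SKO. Kdm6b over Kdm6a was 0.67, 0.734 and 0.654 in DKO, against 0.72, 0.663 and 0.924 in SKO. Setdb2 over Setdb1 was 0.174, 0.0981 and 0.115 in DKO, against 0.109, 0.119 and 0.0892 in SKO. Ehmt2 over Ehmt1 was 0.143, 0.057 and 0.0387 in DKO, against 0.0565, 0.0474 and 0.0133 in SKO. Kmt2a, Suv39h1, Setdb1 and Kdm6b were called on their own, and no ratio was tested.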
